A study of Mus musculus with 12 samples.

Results

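Resting OT-I/Cas9 CD8 T cells that carried a guide RNA against Tmed10 (Tmed10 KO) were compared with resting cells that carried a control guide. The comparison rests on 4 of the 12 RNA sequencing libraries of the series, 2 per group, taken by their labels, and covers every gene that passed the expression filter. OT-I/Cas9 mice carry a transgenic T cell receptor for an ovalbumin peptide and express the Cas9 nuclease in all cells. Per the study, splenic CD8 T cells were activated with antibodies to CD3 and CD28, transduced with a retroviral guide and selected with puromycin, so every group had been activated once, carried a vector and was kept in IL-2, IL-7 and IL-15. Both groups compared here then had H2O, the vehicle, for 24 h without further stimulation, and "resting" means not restimulated. The other groups used below had the same guide pair on plate-bound anti-CD3 at 2.5 µg/mL for 24 h (activated), or were resting control cells with AGN192403 at 100 µM, a compound that binds imidazoline receptor sites. The study uses AGN192403 as a TMED inhibitor and reports that it lowers the amount of several TMED proteins. The Tmed10 KO cells are a transduced pool and not a clone, and nothing in the labels says that the 2 replicates came from separate mice or cultures, so p-values may measure technical spread only.

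TMED10 is a member of the p24 (TMED) family, small membrane proteins that cycle between the endoplasmic reticulum (ER) and the Golgi. They pair with one another, select secretory cargo such as GPI-anchored proteins, and bind the COPII coat on the way out of the ER and the COPI coat on the way back. In T cells this route carries receptors to the surface, cytokines out of the cell and granule proteins to their stores.

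The 4 libraries held 9089350 to 16070889 counts, and the control replicates differed from each other by more than the Tmed10 KO replicates did, with a chi-square per degree of freedom of 2.21 against 1.13. Levels are given as CPM, counts scaled to equal library totals after adjustment by the trimmed mean of M values (TMM). Each log2 fold change is Tmed10 KO over control ± its standard error. Adjusted p is from edgeR's quasi-likelihood test with Benjamini-Hochberg adjustment over 13167 genes, and a gene was called, or is said to have risen or fallen, where it was below 0.05. In bulk RNA, fewer cells with a transcript and less transcript per cell cannot be told apart. The CD8 T cell markers (10 of 10 tested) summed to 4428 to 4495 CPM in control and 4557 to 4563 CPM in Tmed10 KO libraries. Markers of other lineages were lower: myeloid markers summed to 83.2 to 86.3 CPM in control and 74.3 to 75.9 CPM in Tmed10 KO libraries. Cst3, H2-Ab1 and Cd68 were the highest of them, while Csf1r, Cebpa and S100a8 had 0 counts in both groups. B cell markers summed to 137.6 to 144.1 and 162.2 to 163.9 CPM, almost all of it Ighm (0.21 ± 0.051, called), with Ms4a1, Pax5 and Igkc at 0. CD4 T cell markers summed to 92.5 to 98.1 and 94.4 to 95.3 CPM, with Zbtb7b the highest. Mast cell and basophil markers summed to 78.5 to 82.3 and 75.5 to 77.1 CPM, with Kit the highest. Stromal and endothelial markers summed to 97.9 to 98.2 and 89.9 to 90.4 CPM, with Pecam1 the highest. Of the myeloid list 6 of 16 and of the B cell list 3 of 11 markers passed the filter, and their part in other results was not tested.

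Tmed10 itself (ENSMUSG00000021248, chr12:85340614-85374847, minus strand, GRCm38) had 116 and 117 CPM in the control libraries and 61.5 and 65.1 CPM in the Tmed10 KO libraries. The Tmed10 KO level was 54.3% of control (log2 fold change −0.89 ± 0.052, adjusted p = 2.08e-11). Reads of an edited allele still count here, so this level does not measure how many alleles were cut. Of the 9 TMED genes tested, Tmed3 and Tmed9 rose and the other 6 were not called. Tmed3, a p24 protein of the gamma subfamily, had 44.7 and 47.6 CPM in the control libraries and 60.6 and 60.1 CPM in the Tmed10 KO libraries (log2 fold change 0.38 ± 0.064, adjusted p = 0.000311). For Tmed9, of the alpha subfamily, the values were 162 and 165 CPM against 188 and 189 CPM (log2 fold change 0.20 ± 0.050, adjusted p = 0.0114), a call lost in the fits without control replicate 1 or either Tmed10 KO replicate (adjusted p up to 0.107). Tmed2, the beta-subfamily partner, had 30.1 and 32.1 CPM against 32.1 and 30.1 CPM, so its libraries overlapped. Tmed1, Tmed4, Tmed5, Tmed7 and Tmed8 had log2 fold changes from −0.44 (Tmed1) to 0.12 (Tmed4).

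**Figure D1:**
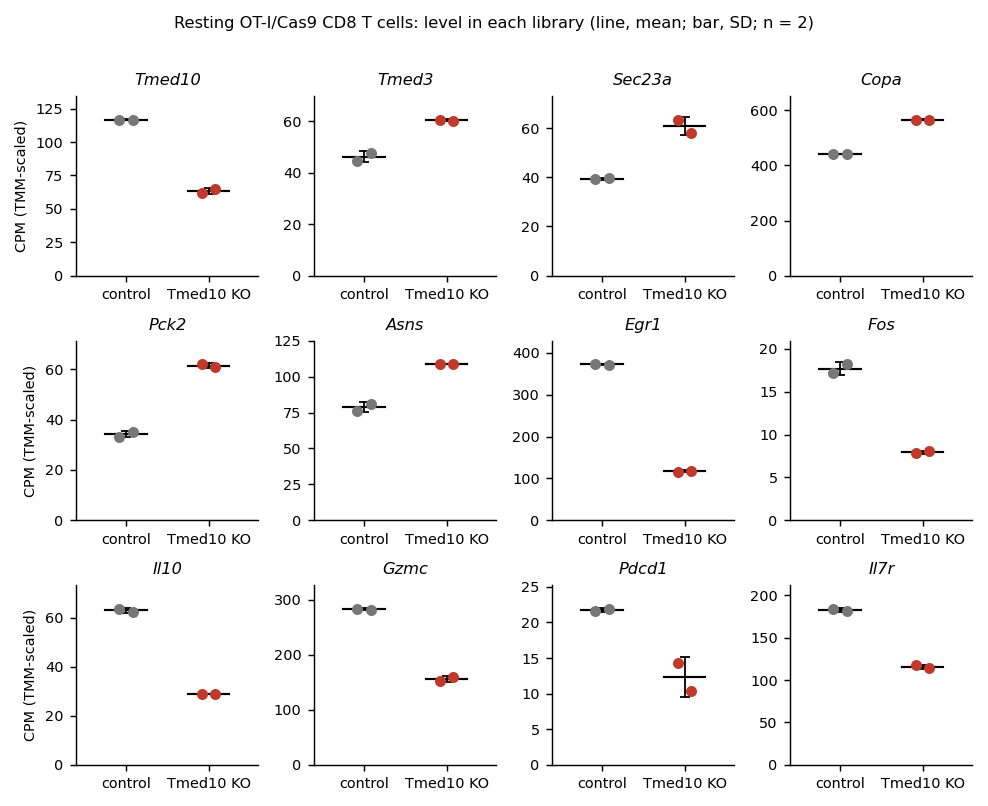
CPM (TMM-scaled, y axis from 0) of 12 genes in the 2 control and the 2 Tmed10 KO libraries of resting cells, with a point per library, a line for the mean and a bar for the SD (n = 2). In each of the 12 panels the 2 groups are separate, as they are for every called gene. Tmed3, Sec23a, Copa, Pck2 and Asns are higher in the Tmed10 KO and the other 7 lower.

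Across all genes tested, 979 were called, 7.44% of 13167, of which 370 (2.81%) were higher and 609 (4.63%) lower in the Tmed10 KO. These shares of 2.81% and 4.63% are the background for the counts in gene lists below. Most differences were small: the median absolute log2 fold change of the called genes was 0.30, with a change of at least 2-fold for 13 of the genes called higher and 66 of those called lower. Libraries of the groups did not overlap for 51.2% of all genes and for all 979 called genes. A lack of overlap thus says little on its own with 2 against 2 libraries, and adds nothing to a call. With library totals in place of TMM the calls were 1028, 50.9% of them higher instead of 37.8%, and with offsets for transcript length and GC content 989, 57.4% of them higher, so the balance of rises and falls depends on the scaling. The number of calls also depended on single libraries: it was 347 without control replicate 1, 784 without control replicate 2, 306 without Tmed10 KO replicate 1 and 471 without Tmed10 KO replicate 2.

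The 15 largest rises were taken among called genes of at least 10 CPM in the higher group, without overlap between the groups. They were led by Tox, Dtx1 and Pck2. Tox, a transcription factor of exhausted T cells, had 6.39 and 5.75 CPM in the control libraries and 12.5 and 10.8 CPM in the Tmed10 KO libraries (log2 fold change 0.97 ± 0.16, adjusted p = 0.000249). Dtx1, an E3 ligase of the Notch pathway, rose from 20.8 ± 2.82 to 39.1 ± 1.07 CPM (SD, n = 2), 0.89 on the log2 scale. Pck2, mitochondrial phosphoenolpyruvate carboxykinase, rose from 34.1 ± 1.19 to 61.4 ± 0.913 CPM (SD, n = 2), a log2 fold change of 0.85 ± 0.062. The lack of overlap was a condition for all 15 and is no further result. The others were the collagen gene Col6a2 (0.71), Pygm for muscle glycogen phosphorylase (0.69), the ER-resident gamma-glutamyl carboxylase Ggcx (0.68), the T cell receptor gamma constant segment Tcrg-C1 (0.66), the repressor Hic1 (0.66), the cytokine Tgfb3 (0.65), the COPII gene Sec23a (0.64), the ciliary gene Drc1 (0.63), Klf2, a quiescence factor (0.62), the mitochondrial methyltransferase Tfb1m (0.60), Cd7 (0.59) and the neuronal vesicle gene Nsg2 (0.59). In CPM the largest rises were of housekeeping transcripts, the elongation factor Eef2 (7079.8 and 7139 CPM against 7718 and 7793 CPM), Npm1 and Rpl17, together with the coat gene Copa and Il12rb2, a subunit of the interleukin-12 receptor (778 and 786 CPM against 903 and 901 CPM).

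The 15 largest falls, taken by the same rule, held Tmed10 itself, the immediate early factors Egr1, Fos and Fosb, the cytokine Il10, the granzyme Gzmc and the matrix protease Adamts14. In the remaining 8 the control libraries stood further apart, replicate 1 above replicate 2, and these were Kcnq1ot1, Malat1, Neb, Macf1, Ptbp2, Pkhd1l1, A930004J17Rik and Gm38357. In CPM the largest falls were Malat1, Gzmb, Xist, Macf1, Ahnak and Gzma.

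In the lists of COPI, COPII, KDEL and other cargo receptors, and tethers of the early secretory pathway, the called genes were higher, while the TMED list above also held the fall of Tmed10. The COPI coat coats vesicles that return from the Golgi to the ER: 11 of 18 tested genes of the coat and of Arf activation were called higher against 2.81% of all genes, with a median log2 fold change of 0.23 against 0.0027 over all genes. Copa, its alpha subunit, had 442 and 441 CPM in the control libraries and 567 and 566 CPM in the Tmed10 KO libraries (log2 fold change 0.36 ± 0.038, adjusted p = 6.34e-07). The replicates of each group were almost equal. Copz2, a coat subunit at low counts, had 0.500 and 0.757 CPM against 1.67 and 1.42 CPM. Copb2 rose by 0.43 ± 0.043, Copb1 by 0.34 ± 0.041, and the small GTPases Arf4 and Arf1, which recruit the coat, by 0.39 and 0.29 on the log2 scale. Without 1 library, 8 to 9 of the 18 were called.

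The COPII coat, which buds vesicles from the ER, had 5 of 15 members called higher, also in each fit without 1 library, with a median of 0.10. Sec23a, an inner-coat subunit, had 39.2 and 39.7 CPM in the control libraries and 63.5 and 58.2 CPM in the Tmed10 KO libraries (log2 fold change 0.64 ± 0.061, adjusted p = 1.55e-07). The cargo adaptor Sec24d rose from 48.1 ± 0.984 to 66.6 ± 0.0357 CPM, the outer-cage genes Sec31a and Sec13 rose by 0.42 and 0.36, and the GTPase Sar1a by 0.30. Only Sec23a of the 2 Sec23 genes and Sec24d of the 4 Sec24 genes were called.

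Among 18 receptors that return or load ER cargo, 6 were called higher, with a median of 0.12. All 3 KDEL receptors, which retrieve escaped ER proteins, rose. Kdelr3, at low counts, had 2.10 and 1.66 CPM in the control libraries and 4.999 and 6.004 CPM in the Tmed10 KO libraries (log2 fold change 1.53 ± 0.22, adjusted p = 5.56e-05). Kdelr2 rose by 0.44 and Kdelr1 by 0.23, beside the cycling proteins Yif1a (0.49), Yipf5 (0.36) and the cargo receptor Surf4 (0.20). Of 29 tethers, SNAREs and golgins, 9 were called higher, with 3 to 7 called when 1 library was left out. The ER-Golgi SNARE Sec22b had 53.7 and 60.2 CPM against 76.2 and 76.3 CPM (0.41 ± 0.061), and the fusion and tethering genes Gosr2, Golga5 and Golga2 rose by 0.31, 0.35 and 0.27. The Golgi scaffold Acbd3 (0.40) and the membrane-bound factor Creb3 (0.32) from the list of Golgi stress genes rose too, and with Arf4 made up 3 of its 21 members.

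Lists on entry into the ER and on folding held smaller shares of called genes. In the translocon list, 5 of 21 genes were called higher, led by Srpr, the signal recognition particle receptor (111 and 110.2 CPM against 137 and 134 CPM, 0.30 ± 0.047), with Sec61a1, the channel itself, at 0.22. With 1 library left out, 1 to 3 members were called. Of 23 chaperones and folding enzymes 4 were called higher, 1 to 2 without 1 library: the disulfide isomerases Pdia5 (0.85), Txndc5 (0.28) and P4hb (0.18), and the co-chaperone Dnajc3 (0.14). Hspa5, the main ER chaperone BiP, had 688 and 698 CPM in the control libraries and 731 and 729 CPM in the Tmed10 KO libraries and was not called (adjusted p = 0.23), nor was Hsp90b1 (0.06). Of 22 sensors, transcription factors and degradation genes of the unfolded protein response, Herpud1 (0.31 ± 0.047) and Xbp1 (0.15 ± 0.045) were called, 1 to 2 without 1 library. In N-glycan assembly 3 of 40 were called higher, Pgm3, Stt3a and Gfpt1, of which the oligosaccharyltransferase subunit Stt3a changed most firmly (274 and 283 CPM against 363 and 368 CPM, adjusted p = 7.28e-07). None of 28 genes of GPI anchor synthesis was called by edgeR or DESeq2, with a median of 0.0067 and log2 fold changes from −0.39 to 0.37, and 3 of the 28 had an unadjusted p under 0.05.

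**Figure D2:**
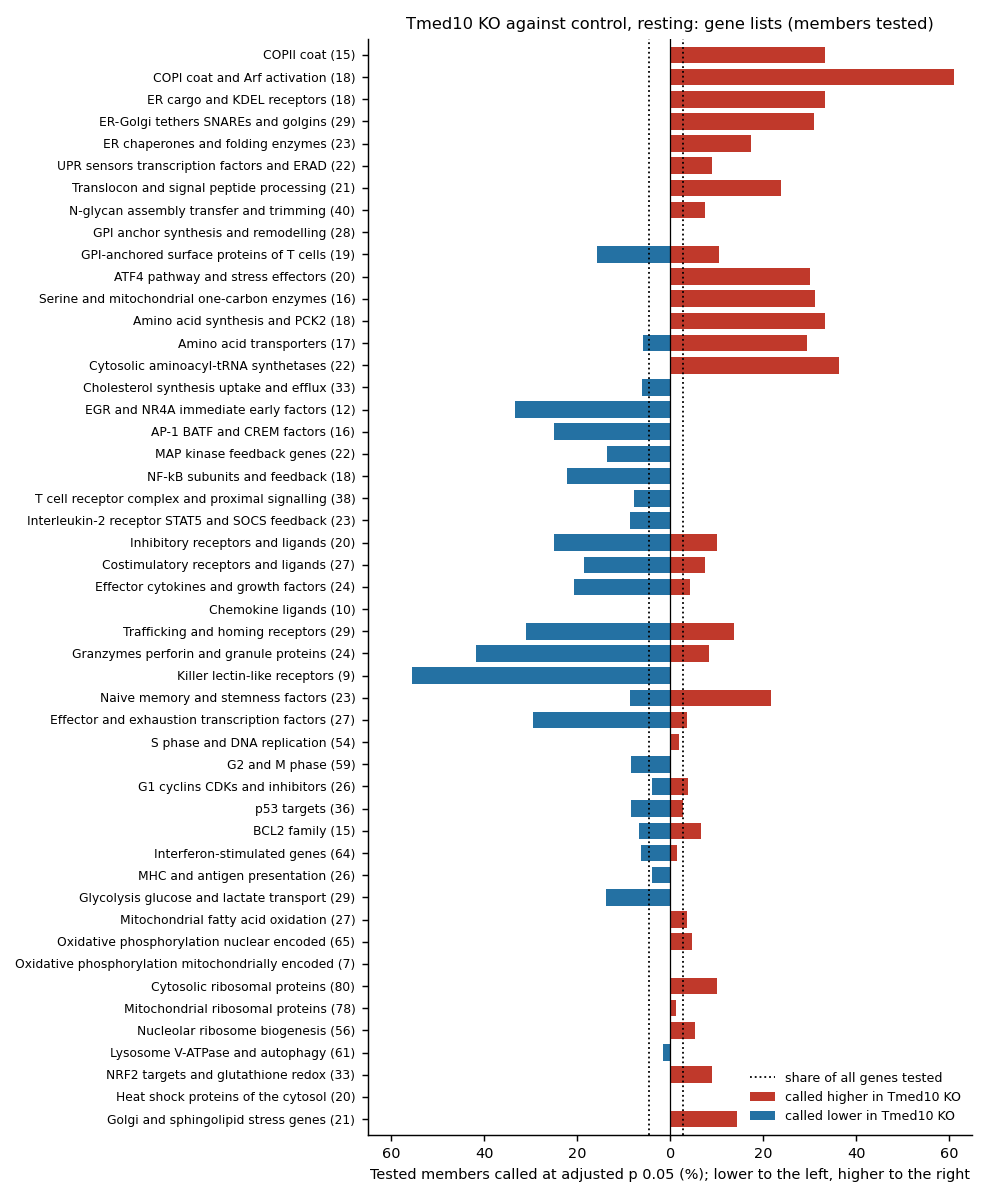
Share of the tested members of the plotted gene lists (number tested in parentheses; the TMED, client, nuclear RNA and marker lists are left out) called higher (right) or lower (left) in the resting Tmed10 KO at an adjusted p of 0.05, with dotted lines at the shares over all genes tested, 2.81% and 4.63%. Of the lists plotted, COPI genes reach furthest to the right (11 of 18) and killer lectin-like receptors furthest to the left (5 of 9, but 2 to 3 without 1 library).

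Some genes of amino acid supply, many of them known targets of the transcription factor ATF4, rose as well. ATF4 is translated when protein synthesis is curbed under amino acid shortage or ER stress, and it binds a short DNA element (the C/EBP-ATF response element, CARE) near its targets. The 5 lists cover ATF4 itself, one-carbon metabolism, amino acid synthesis, transport and tRNA charging. The promoter letters of 5 of the called genes that hold the element are shown to make the shared site visible. The letters come from RefSeq on GRCm38.p6, run 5′ to 3′ along the gene and end at the start site or before it, and capitals mark the element, TGATGNAA on either strand.
Asns (chr6:7693210-7693262, minus strand): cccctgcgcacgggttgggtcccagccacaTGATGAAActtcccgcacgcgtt
Pck2 (chr14:55540133-55540200, plus strand): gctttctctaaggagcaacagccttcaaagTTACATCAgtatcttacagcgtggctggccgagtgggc
Pycr1 (chr11:120643814-120643881, minus strand): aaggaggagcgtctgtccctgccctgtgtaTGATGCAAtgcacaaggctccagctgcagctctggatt
Nupr1 (chr7:126625543-126625610, minus strand): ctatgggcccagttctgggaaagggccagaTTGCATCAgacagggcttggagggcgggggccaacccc
Slc7a11 (chr3:50443642-50443709, minus strand): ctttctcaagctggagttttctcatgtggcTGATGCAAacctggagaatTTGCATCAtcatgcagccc
Slc7a11 held 2 matches, 1 on each strand. Over the 5 lists, 9 of 24 called-higher genes with a promoter in the table held a match within 250 bases before to 50 bases after the start (Asns, Gars, Iars, Nupr1, Pck2, Pycr1, Slc7a11, Tars and Trib3), as did 8 of 45 genes that were not called. Of all 9502 tested genes with a promoter 2.75% held one, and of all 32851 promoters 3.97%. A match is a description of letters, and binding was not measured.

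In the ATF4 list itself 6 of 20 genes were called higher (median 0.15), 1 to 3 without 1 library. Atf4 had 260.3 and 269.8 CPM in the control libraries and 289 and 301 CPM in the Tmed10 KO libraries (log2 fold change 0.15 ± 0.043, adjusted p = 0.03), a call lost whichever of the 4 libraries was left out (adjusted p up to 0.273). Trib3, a pseudokinase that feeds back on ATF4, had 47.5 and 48.6 CPM in the control libraries and 66.4 and 65.7 CPM in the Tmed10 KO libraries (log2 fold change 0.46 ± 0.064, adjusted p = 3.45e-05). The stress protein Nupr1, at a low level, had 0.999 and 1.74 CPM against 3.52 and 4.48 CPM, and the factor Atf5 and the transaminase Gpt2 rose by 0.48 and 0.57. Ddit3, which encodes the stress factor CHOP, had 20.5 and 16.8 CPM against 17.2 and 16.4 CPM and was not called (−0.13 ± 0.10).

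Of 18 genes of amino acid synthesis 6 were called higher (median 0.15), 3 to 5 without 1 library, among them Bcat1, of branched-chain amino acid exchange (0.38 ± 0.084). Asns, asparagine synthetase, had 76.3 and 81.3 CPM in the control libraries and 109 and 109 CPM in the Tmed10 KO libraries (log2 fold change 0.46 ± 0.056, adjusted p = 5.42e-06). Pycr1, of proline synthesis, had 4.995 and 4.31 CPM against 6.97 and 9.93 CPM, with the 2 Tmed10 KO libraries unlike each other but both above control. Of the serine and one-carbon enzymes 5 of 16 were called higher, 2 to 5 without 1 library: Shmt2 (169 and 182 CPM against 222 and 221 CPM), Mthfd2 (0.23), Psat1 (0.21), Phgdh (0.19) and Aldh1l2. Aldh1l2, a mitochondrial folate dehydrogenase, was close to 0 in control cells, with 3 and 1 counts there against 28 and 17 counts in the Tmed10 KO (0.300 and 0.0757 CPM against 1.73 and 1.86 CPM), and its log2 fold change of 3.29 ± 0.50 depends on the prior count. Among 17 transporters 5 were called higher, 2 to 4 without 1 library, and Slc43a2 lower. The heavy chain Slc3a2 and its partner Slc7a5, which import large neutral amino acids, rose by 0.23 and 0.30; the glycine transporter Slc6a9 had 2.698 and 2.95 CPM against 8.15 and 7.75 CPM (1.49 ± 0.17). The cationic transporter Slc7a3 (0.81) and the cystine transporter Slc7a11 (0.3996 and 0.530 CPM against 1.23 and 1.64 CPM) were low. Of 22 cytosolic aminoacyl-tRNA synthetases 8 were called higher, Sars (0.25 ± 0.044) and Nars (0.23 ± 0.048) the most, and 1 to 6 without 1 library. The list of cholesterol synthesis, uptake and efflux had 0 of 33 called higher and 2 lower, Abca1 and Nsdhl, with fewer lower in every fit without 1 library.

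Several immediate early genes, which T cell receptor and MAP kinase signals induce within minutes, were lower in the resting Tmed10 KO. Egr1, a zinc finger factor of this class, had 373 and 372 CPM in the control libraries and 115 and 118 CPM in the Tmed10 KO libraries (log2 fold change −1.68 ± 0.046, adjusted p = 2.44e-18). The replicates were almost equal within each group, and Egr1 was the gene with the smallest adjusted p of all. Of 12 EGR, NR4A and IER genes 4 were called lower, against 4.63% of all genes. Egr2 had 4.40 and 3.78 CPM against 1.79 and 1.201 CPM (−1.36 ± 0.26), Ier2 103 and 105 CPM against 67.5 and 64.4 CPM (−0.65 ± 0.053) and Ier3 34.5 and 30.9 CPM against 23.3 and 24.3 CPM (−0.46 ± 0.087). Egr3 and Nr4a1 were at 1.54 to 2.997 CPM and not called (−0.35 ± 0.26 and −0.22 ± 0.24).

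Of 16 AP-1, BATF and CREM factors the 4 called were again lower. Fos had 17.2 and 18.2 CPM in the control libraries and 7.84 and 8.08 CPM in the Tmed10 KO libraries (log2 fold change −1.16 ± 0.13, adjusted p = 1.11e-06). Fosb fell by 0.99 from 13.5 ± 1.36 to 6.84 ± 0.512 CPM, and Junb by 0.53 and Jun by 0.25 on the log2 scale. The dual-specificity phosphatases Dusp2, Dusp5 and Dusp4, which switch MAP kinases off and are induced by them, were the 3 of 22 MAP kinase feedback genes called. Dusp2 had 67.04 and 65.7 CPM in the control libraries and 47.6 and 46.5 CPM in the Tmed10 KO libraries (log2 fold change −0.49 ± 0.058, adjusted p = 3.45e-06), and Dusp5 and Dusp4 had log2 fold changes of −0.39 ± 0.048 and −0.38 ± 0.078. All 3 were called in every fit without 1 library. Egr2 and Dusp5 are shown as the called genes of these 3 lists found to hold a CArG box, the core that serum response factor binds, in capitals. The search covered 250 bases before to 50 bases after each start. Called genes without a promoter here, and boxes further out, were not searched, so a gene not shown may still have a box.
Egr2, upstream start (chr10:67537464-67537533, plus strand): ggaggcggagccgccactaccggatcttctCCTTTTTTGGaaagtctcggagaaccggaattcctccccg
Egr2, downstream start (chr10:67537767-67537836, plus strand): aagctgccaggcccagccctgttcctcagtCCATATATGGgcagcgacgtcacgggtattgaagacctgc
Dusp5 (chr19:53529033-53529102, plus strand): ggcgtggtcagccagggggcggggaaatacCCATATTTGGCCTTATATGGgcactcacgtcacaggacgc
Egr2 has 2 annotated starts, each with a box, and in Dusp5 the 2 boxes lie side by side. Of 8 called-lower genes of these lists with a promoter in the table, 2 held a box, as did 1 of 29 that were not called and 1.46% of tested genes.

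Among 18 NF-kB subunits and feedback genes 4 were called lower, Nfkbiz (−0.40 ± 0.075) and Traf1 (−0.23 ± 0.040) the most firmly, and 1 to 3 without 1 library. Rgs16, which damps G protein signals, had 25.98 and 25.4 CPM against 15.1 and 13.5 CPM (−0.82 ± 0.097). Of 38 genes of the T cell receptor complex and proximal signalling 3 fell (7.89%, against 4.63% of all genes), and 7 with only the compared libraries. The count changed with the library left out. Cbl, a ubiquitin ligase that limits receptor signals, had the largest fall (−0.34 ± 0.058), and the median of the list was −0.014.

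The 5 candidate TMED10 client proteins named by the study were chosen by it with these cells in view, so their count is not independent. The study named them from protein data, while the values here are levels of RNA and do not measure client status. Of the 5, Pdcd1, Ctla4 and Igf2r fell, though the call for Igf2r was lost whichever library was left out. Pdcd1, the gene of the checkpoint receptor PD-1, had 21.6 and 21.9 CPM in the control libraries and 14.3 and 10.4 CPM in the Tmed10 KO libraries (log2 fold change −0.76 ± 0.11, adjusted p = 6.05e-05). The Tmed10 KO libraries differed from each other but lay below both controls. In activated cells, not resting ones, the study found by qPCR no significant change of Pdcd1 mRNA in its TMED knockouts. It infers regulation of PD-1 after transcription. Ctla4, another checkpoint receptor, had 187 and 192 CPM in the control libraries and 154 and 145 CPM in the Tmed10 KO libraries (log2 fold change −0.34 ± 0.047, adjusted p = 3.15e-05), and Igf2r, the receptor that sorts lysosomal enzymes, had a log2 fold change of −0.18 ± 0.044.

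Of 20 inhibitory receptors and ligands 5 were lower and 2 higher. Lag3 had 130.3 and 134 CPM against 95.4 and 99.9 CPM (−0.44 ± 0.056) and Havcr2, the gene of TIM-3, 123 and 120.5 CPM against 91.5 and 86.3 CPM (−0.44 ± 0.048). Cd101, at a low level (6.49 and 5.599 CPM against 3.58 and 3.49 CPM), was also called (−0.76 ± 0.21). In the other direction went Nt5e, the GPI-anchored ectoenzyme CD73 (71.7 and 72.9 CPM against 102 and 96.9 CPM, 0.46 ± 0.057), and Cd160, also GPI-anchored in part of its forms (145 and 150.5 CPM against 182 and 177 CPM, 0.28 ± 0.047). Tigit, Cd274 and Entpd1, the gene of CD39, were not called (adjusted p = 0.935, 0.316 and 0.0873). For the surface proteins with a GPI anchor, cargo of p24 proteins, 2 of 19 transcripts were called higher (10.5%) and 3 lower (15.8%), which are counts of RNA and not of surface protein. The lower ones were Cd55, Ly6a and Ly6c2, and fewer were called lower in every fit without 1 library.

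Of 27 costimulatory receptors and ligands 5 were called lower (18.5%) and 2 higher (7.41%), against 4.63% and 2.81% of all genes. Fewer in each direction were called in every fit without 1 library. Tnfrsf8, the gene of CD30, had 94.3 and 92.5 CPM in the control libraries and 56.1 and 58.4 CPM in the Tmed10 KO libraries (log2 fold change −0.71 ± 0.056, adjusted p = 5.1e-09), Icos had 243 and 231 CPM against 167 and 165 CPM (−0.51 ± 0.046), and the early activation marker Cd69 had 185 and 167 CPM against 132 and 133 CPM (−0.40 ± 0.053). Tnfrsf4, the gene of OX40, fell too (−0.42 ± 0.12), and the death ligand Tnfsf10 rose (0.33 ± 0.081). Tnfrsf9, the gene of CD137, which the study uses as an activation marker, had 936 and 935 CPM against 906 and 879.9 CPM and was not called (adjusted p = 0.352).

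Cytokine transcripts were lower for 5 of 24 genes (20.8%, against 4.63% of all genes), and for fewer in most fits without 1 library. Il10, an anti-inflammatory cytokine, had 63.7 and 62.3 CPM in the control libraries and 28.8 and 28.8 CPM in the Tmed10 KO libraries (log2 fold change −1.13 ± 0.067, adjusted p = 2.08e-11), with near-equal replicates. Csf1, a macrophage growth factor, had 19.9 and 18.9 CPM against 11.4 and 9.61 CPM (−0.85 ± 0.12), and Il24 had 45.3 and 43.3 CPM against 31.2 and 34.2 CPM (−0.45 ± 0.072). Tnf had 69.7 and 74.0 CPM against 61.7 and 60.6 CPM (−0.23 ± 0.061, adjusted p = 0.0176), and Il13 was below 1.75 CPM in every library (−1.87 ± 0.47). Tgfb3 was the one called higher. Ifng had 8.79 and 7.49 CPM against 6.67 and 6.33 CPM and was not called (adjusted p = 0.254), and Il2 had 0 counts in all 4 libraries, which allows up to 0.327 CPM (3 counts) in the shallowest, counting error only. None of 10 chemokine ligands was called by edgeR or DESeq2, with 1 at an unadjusted p under 0.05 in edgeR.

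T cells store their killing machinery in granules. Of 24 granzymes, perforin and granule proteins 10 were called lower (41.7%) and 2 higher (8.33%). Fewer were lower in every fit without 1 library, and fewer were higher in most of those fits. The granzymes of the Gzmb gene cluster fell the most: Gzmc had 284 and 282 CPM in the control libraries and 152 and 159.7 CPM in the Tmed10 KO libraries (log2 fold change −0.86 ± 0.049, adjusted p = 1.71e-11), and Gzmg, Gzme, Gzmd and Gzmf had log2 fold changes of −0.85, −0.82, −0.79 and −0.78. These genes are near-identical copies, so the split of reads among them is uncertain, although all 5 pointed the same way. Prf1, the gene of pore-forming perforin, had 286 and 289 CPM in the control libraries and 196 and 203 CPM in the Tmed10 KO libraries (log2 fold change −0.53 ± 0.045, adjusted p = 2.16e-08). Gzmb, the granzyme that triggers apoptosis in target cells, had 9438 and 9819 CPM against 8561 and 8619 CPM and a small change (−0.16 ± 0.034), and Gzma had 1889.8 and 1934 CPM against 1424 and 1452 CPM (−0.41 ± 0.040). Gzmk, a granzyme of memory cells, was at a log2 fold change of −0.66 ± 0.18. Of 9 killer lectin-like receptors 5 were called lower, 2 to 3 without 1 library and 2 with DESeq2. Klrk1, the gene of NKG2D, had 116 and 122 CPM in the control libraries and 81.97 and 87.9 CPM in the Tmed10 KO libraries (log2 fold change −0.50 ± 0.053, adjusted p = 7.28e-07). Klrc1 and Klrc2, the related genes of NKG2A and NKG2C, had 6.39 and 6.96 CPM against 3.64 and 3.38 CPM and 5.30 and 6.28 CPM against 3.15 and 3.38 CPM. Klre1 had 1.90 and 1.51 CPM against 0.679 and 0.764 CPM (−1.23 ± 0.38). Klrd1, the gene of their partner CD94, changed by only −0.13 ± 0.040 and took the opposite sign with length and GC offsets (0.15, not called). NK cell markers, which share receptors with CD8 T cells, summed to 207.0 to 220.9 CPM in control and 222.1 to 229.1 CPM in Tmed10 KO libraries, mostly Eomes and Cd7.

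Genes tied to quiescence and memory moved in both directions. Of 23, 5 were called higher (21.7%) and 2 lower (8.7%), with fewer higher in every fit without 1 library and fewer lower in at least 1. S1pr1, the receptor for lymph node exit, had 48.1 and 49.2 CPM in the control libraries and 69.1 and 72.5 CPM in the Tmed10 KO libraries (log2 fold change 0.53 ± 0.066, adjusted p = 6.15e-06). Klf2, which drives S1pr1, had 13.6 and 15.4 CPM against 23.5 and 21.1 CPM (0.62 ± 0.11), Klf3 had 17.9 and 17.6 CPM against 26.3 and 24.9 CPM (0.54 ± 0.093), and Lef1 rose by 0.18 ± 0.049. Il6ra, a subunit of the interleukin-6 receptor, had 1.70 and 1.29 CPM against 3.02 and 3.17 CPM. Il7r, the receptor of the survival cytokine IL-7, fell from 184 and 181 CPM to 117 and 114 CPM (log2 fold change −0.66 ± 0.044, adjusted p = 1.83e-10). Tcf7 was just short of the threshold (0.14 ± 0.045, adjusted p = 0.053). Among 27 effector and exhaustion factors 8 were lower, 5 to 6 without 1 library, among them Nfat5, a factor with a long transcript (−0.74 ± 0.10), Runx2 (−0.35 ± 0.048), Prdm1, the gene of Blimp-1 (−0.24 ± 0.074), Id2 (−0.30 ± 0.038) and Irf4 (−0.25 ± 0.040), and Tox alone was higher. Tbx21 and Eomes were not called (adjusted p = 0.321 and 0.487). Of 29 trafficking receptors 9 were lower, including Ccr2 (739 and 755 CPM against 618 and 607 CPM, −0.29 ± 0.040), and 4 higher. Without 1 library 3 to 5 of them were lower and 1 to 3 higher, and DESeq2 called 4 and 2. Cxcr6 was not called (−0.07 ± 0.041).

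Long transcripts were called lower more often than short ones. With the genes ordered by summed exon length into 10 bins, 1.68% of the shortest (up to 1273 bases) and 16.8% of the longest (from 9559 bases) were called lower, while 1.14% and 2.21% were called higher. The median log2 fold change was 0.020 in the shortest and −0.069 in the longest bin. Within the control group, replicate 1 exceeded replicate 2 by a median log2 of 0.056 in the longest bin, and Tmed10 KO replicate 1 differed from replicate 2 by −0.0056. Activated Tmed10 KO cells had a median of −0.068 there against the activated controls. Resting AGN192403 cells had −0.069 against the same 2 resting control libraries, which is therefore no separate observation. With offsets for length and GC the longest bin held 93 genes called higher and 115 lower.

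Malat1, a nuclear RNA and the largest fall in CPM, had 2594 and 1540.5 CPM in the control libraries and 733 and 751 CPM in the Tmed10 KO libraries (log2 fold change −1.48 ± 0.25, adjusted p = 0.0003), so the control libraries differed from each other by more than the Tmed10 KO libraries did. Kcnq1ot1, an antisense RNA of an imprinted locus, had 33.3 and 11.5 CPM against 4.57 and 5.13 CPM, the control libraries again apart, and it was not called in 4 of the 12 other fits. Neb, with exons summing to 26582 bases, had 372 and 271 CPM against 159 and 161 CPM (−0.998 ± 0.16), the cytoskeletal linker Macf1 1285 and 981 CPM against 583 and 604 CPM (−0.93 ± 0.12) and Ahnak 1542 and 1365 CPM against 932 and 943 CPM (−0.63 ± 0.093). Control replicate 1 was the highest library for each of these 5. Of 10 nuclear long RNAs 5 were called lower, 1 to 6 without 1 library, and Gas5 higher, a list drawn up because they vary between libraries of this series. Their part in other results was not tested. Other long genes are in the lists: Mki67, Cenpf and Kif14, of the 5 genes called lower among 59 G2 and M phase genes (3 to 4 without 1 library), have exons that sum to 10061, 15433 and 10358 bases, and Cenpe was no longer called with the offsets.

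**Figure D3:**
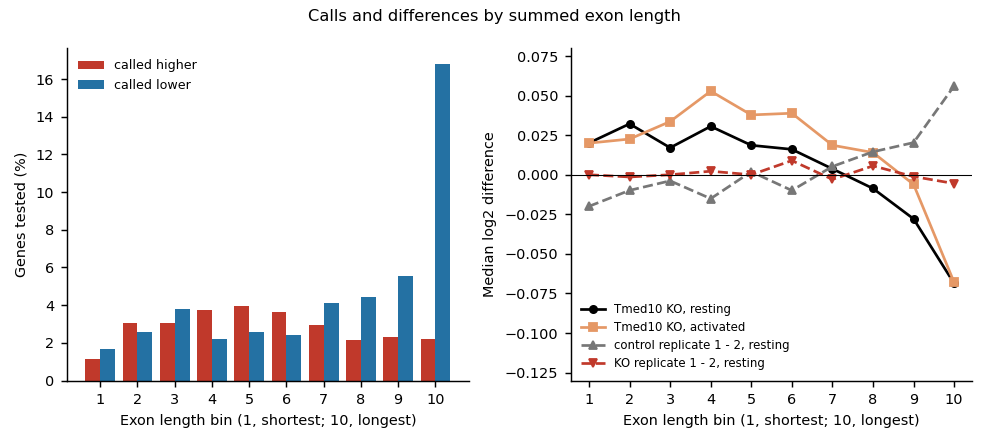
Left, share of tested genes called higher or lower in the resting Tmed10 KO in 10 bins of summed exon length, with 16.8% called lower in the longest bin. Right, median log2 difference per bin for the Tmed10 KO effect at rest and after activation, and between the replicates of the resting control and of the resting Tmed10 KO, where the control replicates part by 0.056 in the longest bin and the Tmed10 KO replicates by −0.0056.

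Several large programs held shares of calls at rest below or above those over all genes, 2.81% higher and 4.63% lower. S phase, lysosome and heat shock genes held smaller shares. Ribosomal protein genes (10.0% higher), glycolysis genes (13.8% lower) and G2 and M phase genes (8.47% lower) held larger ones. Of 54 S phase genes only Rpa1 was called (0.17 ± 0.038, median −0.014), and of 59 G2 and M phase genes the median was −0.070. Mki67, the proliferation marker, had 935 and 879 CPM against 689 and 700.4 CPM (−0.39 ± 0.055). Among 64 interferon-stimulated genes the calls were 1 upward and 4 downward, 1 to 3 without 1 library, the latter with Mx1, an antiviral GTPase (76.6 and 66.9 CPM against 49.1 and 48.4 CPM, −0.55 ± 0.072). Ribosomal protein genes leaned upward, 8 of 80 called higher with a median of 0.089, but 0 to 1 were called without 1 library 21 with library totals in place of TMM and 29 with only the compared libraries. In the lysosome and autophagy list 1 of 61 was called, the protease Ctsd (909 and 932 CPM against 785 and 787 CPM, −0.23 ± 0.039). None of 20 cytosolic heat shock genes was called by edgeR or DESeq2, with 3 at an unadjusted p under 0.05 in edgeR. Glycolysis had 4 of 29 lower, 13.8% against 4.63% of all genes, including the glucose transporter Slc2a3 (−0.21 ± 0.041), and 24 of the 29 lay below 0. The count was 1 to 3 without 1 library and 11 with only the compared libraries.

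The Tmed10 KO effect at rest was then set against that in activated cells, where Tmed10 KO and control libraries are all different ones. Over all 13167 genes the 2 effects had a Pearson correlation of 0.43 across genes, which are not independent replicates, and 62.6% had the same sign. Of the 979 genes called at rest, 559 (57.1%) were also called after activation, or 21.6% of the 2582 calls there (19.6% of genes), 519 in the same direction and 40 in the opposite one. The difference of the 2 effects was itself called for 653 genes, 4.96%, of which 249 (1.89%) had the higher and 404 (3.07%) the lower effect at rest, a split of 38.1% higher, or 49.1% with length and GC offsets.

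Among secretory genes the difference was called for 1 of 15 COPII genes, Sec24d (0.47 at rest, 0.82 activated), and for 2 of 29 tether genes. Of 23 chaperones 5 had a lower effect at rest, and Hspa5 was at 0.08 at rest and 0.44 activated (difference −0.36 ± 0.049, adjusted p = 5.06e-05). In the ATF4 list 9 of 20 were lower at rest, among them Ddit3 (−0.13 and 0.71), Trib3 (0.46 and 0.97) and Stc2 (0.20 and 0.69).

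Several immediate early and activation genes had opposite signs in the 2 states. Egr1, whose level in control cells was lower activated than at rest (log2 −2.57), fell by 1.68 at rest and was higher by 0.74 activated, on the log2 scale (difference −2.42 ± 0.072, adjusted p = 1.55e-17). Havcr2 stood at −0.44 and 0.44, Cd69 at −0.40 and 0.41, Dusp2 at −0.49 and 0.29 and Rgs16 at −0.82 and 0.26, each called in both states and in the difference. Fos stood at −1.16 at rest and −0.09 activated (difference −1.07 ± 0.19). S1pr1 and the transglutaminase Tgm2 went the other way, higher at rest (0.53 and 0.48) and lower activated (−0.47 and −0.41). Further genes were ranked by this gap among those of at least 10 CPM without overlap between the groups at rest. The membrane gene Tmem154, next to Egr1, was 0.10 at rest and not called there, and 1.30 activated. Thra, Oip5 and Alms1 were next to S1pr1, Tgm2 and Tnfsf10 among the largest differences upward (0.76, 0.71 and 0.68). Gm4841 and Chchd10 were next to Egr1, Tmem154, Rgs16 and Fos downward (−1.16 and −1.02). Thra, Oip5, Alms1, Gm4841 and Chchd10 were not called at rest. Proliferation genes differed between the states in large numbers: 48 of 59 G2 and M phase genes and 17 of 54 S phase genes had an effect at rest above that in activated cells, where their medians were −0.44 and −0.25 against −0.070 and −0.014 at rest. Interferon-stimulated genes had 15 of 64 with the lower effect at rest (medians −0.0045 and 0.26).

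**Figure D4:**
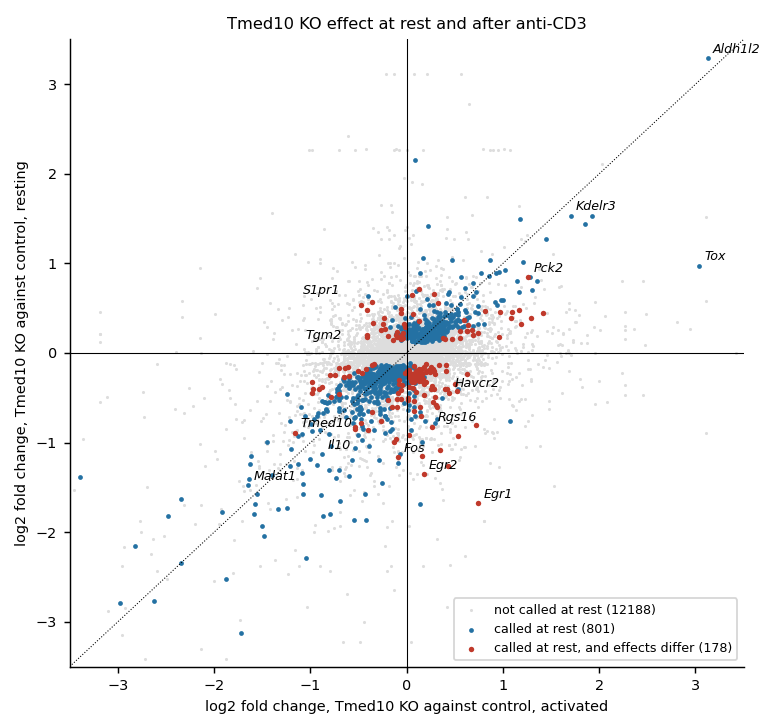
Log2 fold change of Tmed10 KO over control at rest (y axis) and after activation (x axis) for the 13167 genes tested, with 12188 not called at rest in grey, 801 called at rest in blue and 178 called at rest whose 2 effects differed in red (47 genes lie outside the axes). Egr1, Fos and Havcr2 lie off the dotted diagonal of equal effects, and Aldh1l2, Malat1 and Il10 lie near it.

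Resting control cells with AGN192403 share their control libraries with the Tmed10 KO, so the 2 sets of fold changes are given side by side and the groups were tested against each other directly. For Copa the log2 fold change was 0.36 in the Tmed10 KO and 0.90 with AGN192403, for Sec23a 0.64 and 1.55, for Pck2 0.85 and 1.93, and for Hspa5 0.08 and 0.44. The direct test called 2186 genes, 16.6%, with 1162 (8.83%) higher and 1024 (7.78%) lower in the Tmed10 KO, so that 53.2% of calls were higher, or 65.5% with median-ratio size factors. In many lists of secretory genes and some of amino acid genes every called member was lower in the Tmed10 KO than with AGN192403. Among them were 13 of 18 COPI, 11 of 15 COPII, 20 of 29 tether and 13 of 22 tRNA synthetase genes. The same held for 7 of 18 cargo receptors, 10 of 23 chaperones, 10 of 22 unfolded protein response, 14 of 21 translocon and 16 of 40 N-glycan genes. It also held for 5 of 9 TMED genes and 11 of 17 amino acid transporters. Other amino acid lists were mixed: 2 higher and 11 lower in the ATF4 list, 3 and 6 among serine and one-carbon enzymes, and 1 and 6 in amino acid synthesis. Proliferation genes were the reverse, 58 of 59 G2 and M phase and 34 of 54 S phase genes higher in the Tmed10 KO, and 16 of 38 T cell receptor genes were higher too.

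Other genes named above differed from AGN192403 in either direction, or the difference was not called. Il10 had log2 fold changes of −1.13 and −1.10, a difference of −0.03 ± 0.077, and Pdcd1 −0.76 and −0.71, a difference of −0.05 ± 0.12, neither called. Ctla4 fell less in the Tmed10 KO (−0.34 against −0.70, difference 0.36 ± 0.049, adjusted p = 6.76e-06), as did Gzme (−0.82 against −1.36). Egr1 fell more (−1.68 against −0.77, difference −0.91 ± 0.048, adjusted p = 1.18e-12), and so did Il7r (−0.66 against −0.28) and Cd69 (−0.40 against −0.06). Dtx1, Klf2 and Cd7, which rose in the Tmed10 KO, had log2 fold changes of −0.21, −0.37 and −0.51 with AGN192403, with direct differences of 1.10 ± 0.091, 0.997 ± 0.11 and 1.10 ± 0.076.

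**Figure D5:**
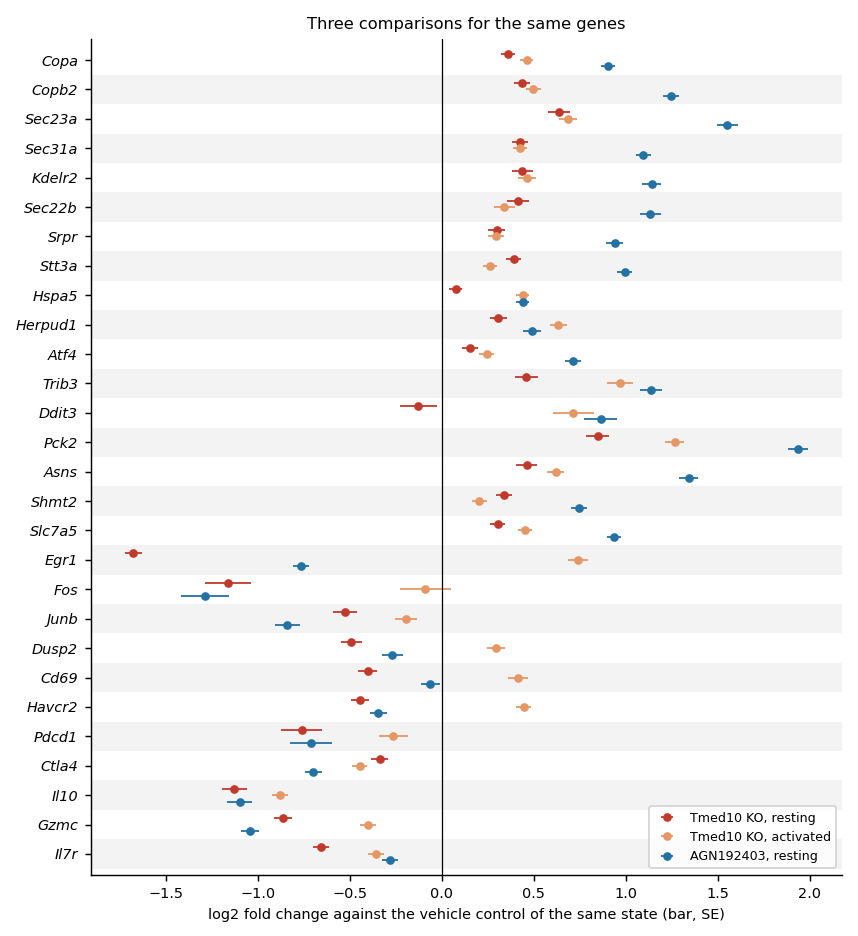
Log2 fold change ± SE of 28 genes against the vehicle control of the same state, for the Tmed10 KO at rest (red), the Tmed10 KO activated (orange) and AGN192403 at rest (blue, sharing control libraries with the red points). Secretory and amino acid genes lie to the right of 0, except Ddit3 for the resting Tmed10 KO, most of them with the largest value for AGN192403, and Egr1, Dusp2, Cd69 and Havcr2 lie left of 0 for the resting and right of 0 for the activated Tmed10 KO.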

How the data were processed

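The authors deposited a table of read counts per gene for 46603 mouse gene identifiers in 12 libraries. Per the labels these came from stranded poly-A libraries read as single ends, with STAR 2.6.0c, HTSeq and GRCm38 (mm10) in the submitters' processing notes, while the strand setting of the counting is not given in the sources used here. Reads that match near-identical genes, overlapping genes and antisense partners can therefore be split or shared. All 12 columns matched a sample by name.

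Genes were filtered with filterByExpr over the 6 groups (13167 kept, holding 99.9% of counts), scaled by TMM and fitted with edgeR 4.0.16 in R 4.3.3 (glmQLFit and glmQLFTest) with 1 mean per group over all 12 libraries, so that groups shared 1 estimate of the spread (6 residual degrees of freedom, common biological coefficient of variation 0.0306). Contrasts were Tmed10 KO against control at rest, the difference of this effect from that in activated cells, and Tmed10 KO against AGN192403 at rest. The standard error is the absolute log2 fold change over the square root of F. The script was tested on simulated data. Alternatives were DESeq2 1.42.0, other scalings, filters and libraries, the replicate as a block, and each library left out. Alternative offsets followed a loess of span 0.4 on exon length and GC.

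Genes named are a fixed panel of the study's genes, the 15 largest rises and falls of at least 10 CPM without overlap between groups, the 6 largest in CPM each way, and up to 6 called genes of each list. Other genes, such as Hspa5, Ddit3, Prf1, Rgs16, Tcf7 and Tigit, were chosen after their values were seen. Some genes that the rule names are not reported here. The gene lists, members and tests were chosen with earlier results of these data known. Promoters came from RefSeq (GRCm38.p6), 9502 of the tested genes having one. Guide sequences and protein sequences are not used here.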

Additional observations from a re-analysis of the deposited data

Results flagged for a closer look

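A test of the difference between the Tmed10 KO effect at rest and that in activated cells drew attention to genes named above. Values are the resting minus the activated log2 fold change, each with an adjusted p under 0.05 in edgeR's quasi-likelihood test over 13167 genes and with a call in at least 1 of the states. No test of outlying samples was made, as each group has 2 libraries. In the TMED family the difference was 0.27 for Tmed10 (log2 fold change −0.89 at rest and −1.15 activated) and −0.24 for Tmed5. In amino acid supply and the ER it was −0.42 for Pck2, −0.69 for Atf5, −0.51 for Trib3, −0.48 for Stc2, −0.84 for Ddit3, −0.33 for Herpud1, −0.36 for Hspa5 and −0.35 for Sec24d. Among immediate early and feedback genes it was −2.42 for Egr1, −1.53 for Egr2, −1.07 for Fos, −0.86 for Fosb, −0.72 for Ier2, −0.33 for Junb, −0.78 for Dusp2, −0.46 for Dusp5, −0.41 for Dusp4, −0.66 for Nfkbiz and −1.09 for Rgs16. Among checkpoint, costimulatory and GPI-anchored surface molecules it was −0.50 for Pdcd1, −0.89 for Havcr2, −0.63 for Nt5e, −0.66 for Cd55, −0.45 for Icos, −0.82 for Cd69, 0.68 for Tnfsf10 and 0.25 for the sorting receptor Igf2r. For cytokines and their receptors it was −0.36 for Tnf, 0.54 for Il24, 0.60 for Tgfb3, 0.26 for Il12rb2 and −0.30 for Il7r. In the killing machinery it was −0.46 for Gzmc, −0.31 for Gzmd, −0.29 for Gzme, −0.31 for Gzmg, −0.54 for Prf1, −0.94 for Klrc1, −0.51 for Klrk1 and −0.54 for Klrd1. For memory and effector genes it was 1.01 for S1pr1, 0.28 for Lef1, −0.57 for Tcf7, −0.39 for Eomes, −0.23 for Id2, −0.40 for Prdm1 and −0.27 for Runx2. In the cell cycle and its spindle it was 0.49 for Mki67, 0.57 for Cenpf, 0.53 for Cenpe, 0.38 for Kif14, 0.27 for Rpa1, 0.71 for Oip5 and 0.68 for Alms1. The other genes were the chemokine receptor Cxcr6 (−0.36), Tgm2 (0.89), Col6a2 (0.58), Tcrg-C1 (0.37), Mx1 (−0.82), Adamts14 (−0.84), Ctsd (−0.21), Tmem154 (−1.19), Gm4841 (−1.16) and Chchd10 (−1.02).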

How the results depend on the processing

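The fall of Tmed10 kept its direction and its call in all 12 alternatives. Against 979 calls at rest, DESeq2 made 380 (161 higher, 219 lower, 4 and 9 of them at least 2-fold), and length and GC offsets, added after seeing the data, left 568 higher. A filter of 5 CPM left 8 genes at least 2-fold higher and 24 lower, and no filter gave 124 lower. Leaving out each library in turn gave 306 to 784 calls, 116 to 216 higher and 190 to 568 lower, with 7 to 12 genes at least 2-fold higher and 17 to 107 lower. Genes whose effects differed between states numbered 312 with DESeq2 and 336 to 475 without 1 library, and genes that differed from AGN192403 1297 and 1056 to 1511. The replicate numbers did not pair the samples of the resting comparison (correlation of replicate differences −0.0051). Over all 15 pairs of groups it exceeded 0.1 in 3, all among control groups: resting and activated vehicle (0.19), resting vehicle and activated AGN192403 (0.24), and activated vehicle and activated AGN192403 (0.21). With the replicate as a block, 1398 genes were called at rest, 122 of them at least 2-fold lower, 834 in the difference between states, and Tmed10 stood at −0.88. Of 165 called genes described, 93 were called in every alternative, 0 were lost with the block, 29 with DESeq2, 7 with length and GC offsets and 33 to 59 without 1 library. Klrd1 alone changed sign, to 0.15 with those offsets. With 2 libraries per group and 6 residual degrees of freedom, small differences in genes of low count were not detectable at this depth. The cause of these shifts was not tested. Among the genes named, the call was lost whichever library was left out for Eef2, Rpl17, Copz2, Dnajc3, Atf4, Atf5, Stc2, Slc7a11, Slc43a2, Tars, Igf2r, Tnfrsf4, Klrd1, Lef1, Cenpe, Abca1, Klre1, Il6ra and Prdm1, and without at least 1 but not every library for Tmed9, Ggcx, Drc1, Klf2, Tfb1m, Nsg2, Kcnq1ot1, Gm38357, A930004J17Rik, Npm1, Gzmb, Xist, Kdelr1, Surf4, Golga5, Creb3, Pdia5, P4hb, Txndc5, Xbp1, Sec61a1, Pgm3, Gfpt1, Nupr1, Gpt2, Mthfd2, Psat1, Phgdh, Pycr1, Slc7a3, Slc3a2, Nars, Gars, Iars, Ier3, Jun, Nfkbiz, Cd101, Tnfsf10, Tnf, Il13, Klrc2, Rpa1, Gas5, Ighm, Cd55, Ly6a, Ly6c2, Nsdhl, Bcat1 and Gzmk.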
